A study of Homo sapiens with 8 samples.

Results

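The RNA exosome subunits EXOSC1 to EXOSC10 were followed across 8 RNA libraries of HEK293T, an established line of human embryonic kidney cells. The members were the transcripts of the deposited table whose RefSeq identifier belongs to one of these genes, summed per gene: 17 of 53216 transcripts, which gave 10 of 26883 genes. All 10 were above 0 in both RiboMinus libraries, and all 10 passed the minimum level for testing in every comparison. The study asked about RNA that carries NAD at its 5′ end in place of the usual cap, and about DXO, an enzyme that removes NAD caps.

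The RNA exosome is a protein machine that degrades or trims RNA from its 3′ end. A ring of RNase PH-like subunits (EXOSC4 to EXOSC9) and a cap of S1 and KH domain subunits (EXOSC1 to EXOSC3) form a barrel through which RNA is threaded. In the ring, EXOSC4 pairs with EXOSC9, EXOSC5 with EXOSC8 and EXOSC6 with EXOSC7. In human cells the barrel itself has no catalytic activity, which comes from the bound nucleases DIS3, DIS3L and EXOSC10. EXOSC10 is enriched in the nucleus and the nucleolus, where the complex trims precursors of ribosomal RNA and small nucleolar RNA.

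Wild-type (WT) cells gave 2 libraries of RNA depleted of ribosomal RNA with RiboMinus and 3 libraries of RNA enriched by NAD-Capture. Cells labelled DXO-KO, a knockout of DXO, gave 3 NAD-Capture libraries and no RiboMinus library. All cells were grown alike without treatment. NAD-Capture uses an ADP-ribosyl cyclase to exchange part of the NAD cap for an alkyne, clicks biotin onto it and binds the RNA to streptavidin beads. A reaction without the cyclase was described as a background control and was not analysed here, so RNA bound without an NAD cap cannot be told apart from captured RNA. RiboMinus libraries were made with a TruSeq kit and NAD-Capture libraries with a low-input SMARTer kit, so capture and kit cannot be told apart in any comparison with RiboMinus. The labels do not say whether the DXO-KO cells were 1 clone, nor whether replicates were separate cultures, so p-values measure only the spread between these libraries. In bulk RNA, fewer cells with a transcript and less of it per cell cannot be told apart.

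DXO RNA was not lower in the NAD-Capture libraries labelled DXO-KO. Its level was 11.2 and 14.3 FPKM (fragments scaled by transcript length and sequencing depth) in RiboMinus, 33.2, 17.2 and 27.1 FPKM in the WT NAD-Capture libraries, and 127.6, 61.6 and 71.7 FPKM in the DXO-KO-labelled libraries. Every library labelled DXO-KO was above every WT library. The log2 difference between the NAD-Capture groups was 1.69 (SE 0.388), which missed the threshold (limma, adjusted p = 0.117, and 0.0503 to 0.312 over 15 alternatives). Against RiboMinus, where kit and capture cannot be told apart, the DXO-KO-labelled libraries were 2.61 higher and passed (limma, adjusted p = 0.0335, where 3.29% of all genes passed). WT NAD-Capture was 0.93 higher than RiboMinus and missed the threshold (limma, adjusted p = 0.108). DXO rested on 9, 4 and 10 fragments in WT NAD-Capture and on 147, 12 and 8 for the DXO-KO label. The deposited values do not show which part of the gene the fragments came from, and captured RNA does not show the total level of DXO RNA. Depth, read from the value of a single fragment, was equivalent to 10715939 and 8755940 fragments in RiboMinus, 165585 to 249507 in WT NAD-Capture, and 805520, 138309 and 80599 for the DXO-KO label. Of 7 genes known from HEK293T cells, 6 were above 1 FPKM in both RiboMinus libraries and PAX2 was at 0.0831 and 0.204 FPKM. In the NAD-Capture libraries 6 or 7 of the 7 were above 1 FPKM. Of 7 markers of other cell types, PTPRC was at 0 in every library and 1 of the 7, COL1A1, was above 1 FPKM in RiboMinus. Their summed level was 1.50 and 1.56 FPKM in RiboMinus and 2.92 to 21.5 FPKM in NAD-Capture, and their part in the results was not tested.

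The DNA at the start sites of the subunit genes is shown because an NAD cap takes the place of the initiating nucleotide, and NAD can do so where transcription starts with A. RefSeq (GRCh38.p14) gave 9 starts for 8 of the 10 genes; EXOSC1 and EXOSC4 had no entry. Each sequence holds 15 bases before the start and 15 from it on, and the capital marks the annotated first transcribed base.
EXOSC2 (chr9:130693745-130693774, plus strand): tcgcagctcccgactGagctgcgcctgcgc
EXOSC3 (chr9:37785050-37785079, minus strand): gcgggtaccggaaacGgtgtttggtggagc
EXOSC3 (chr9:37785078-37785107, minus strand): ggtgttggaagcggaGcggaagcggaaggc
EXOSC5 (chr19:41397345-41397374, minus strand): ctgccaggcggaagtGacaactgcagccgc
EXOSC6 (chr16:70251926-70251955, minus strand): accagtggatgcggcAgggcgttgggcgga
EXOSC7 (chr3:44976229-44976258, plus strand): ggaggggacgcgcgcAgatgacgtgcggct
EXOSC8 (chr13:37000771-37000800, plus strand): aggagcggcgcaggcGcagacgcgcgggcg
EXOSC9 (chr4:121801308-121801337, plus strand): ccgcgccttgatgacGtaattttcctgcgc
EXOSC10 (chr1:11099855-11099884, minus strand): cccgtctcctcggccGacaagctctcgcga
The annotated first base was A in 2 of the 9 starts, those of EXOSC6 and EXOSC7, and G in the other 7. Over all 35116 starts of the same table, 44.4% were A and 33.6% were G. These are annotated starts, and the deposited values do not show where transcription began in these cells.

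In the RiboMinus libraries the 10 subunits lay within a narrow band. The ratio of the highest to the lowest subunit was 2.35 in replicate 1 and 2.22 in replicate 2. Each subunit stood between the 76.9th and the 91.2nd percentile of the 12361 genes with a mean RiboMinus FPKM of at least 1, whose median was 10.6 and 10.8 FPKM. The 10 subunits together summed to 431.1 and 417.8 FPKM. The ring took 54.7% and 54.8% of that sum, the cap 30.6% and 30.2%, and EXOSC10 14.78% and 14.99%.

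EXOSC2, a cap subunit, had the highest mean level at 63.6 FPKM ± 1.53 (SD, n = 2), and EXOSC10 was next at 63.2 FPKM ± 0.780 (SD, n = 2). The values of these 2 genes overlapped. EXOSC9, a ring subunit, followed at 56.9 FPKM ± 5.78 (SD, n = 2) and EXOSC7, also of the ring, at 42.5 FPKM ± 1.63 (SD, n = 2). Neither overlapped its neighbours in the order. The other 6, EXOSC8, EXOSC1, EXOSC5, EXOSC4, EXOSC6 and EXOSC3, had means from 38.4 down to 27.99 FPKM, and each overlapped the next in that order. Neighbours among these 6 thus do not differ beyond the spread of the 2 libraries, while EXOSC8, EXOSC1 and EXOSC5 all lay above EXOSC6 and EXOSC3 in both. RiboMinus replicate 2 alone put EXOSC10 first and EXOSC6 last.

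**Figure D1:**
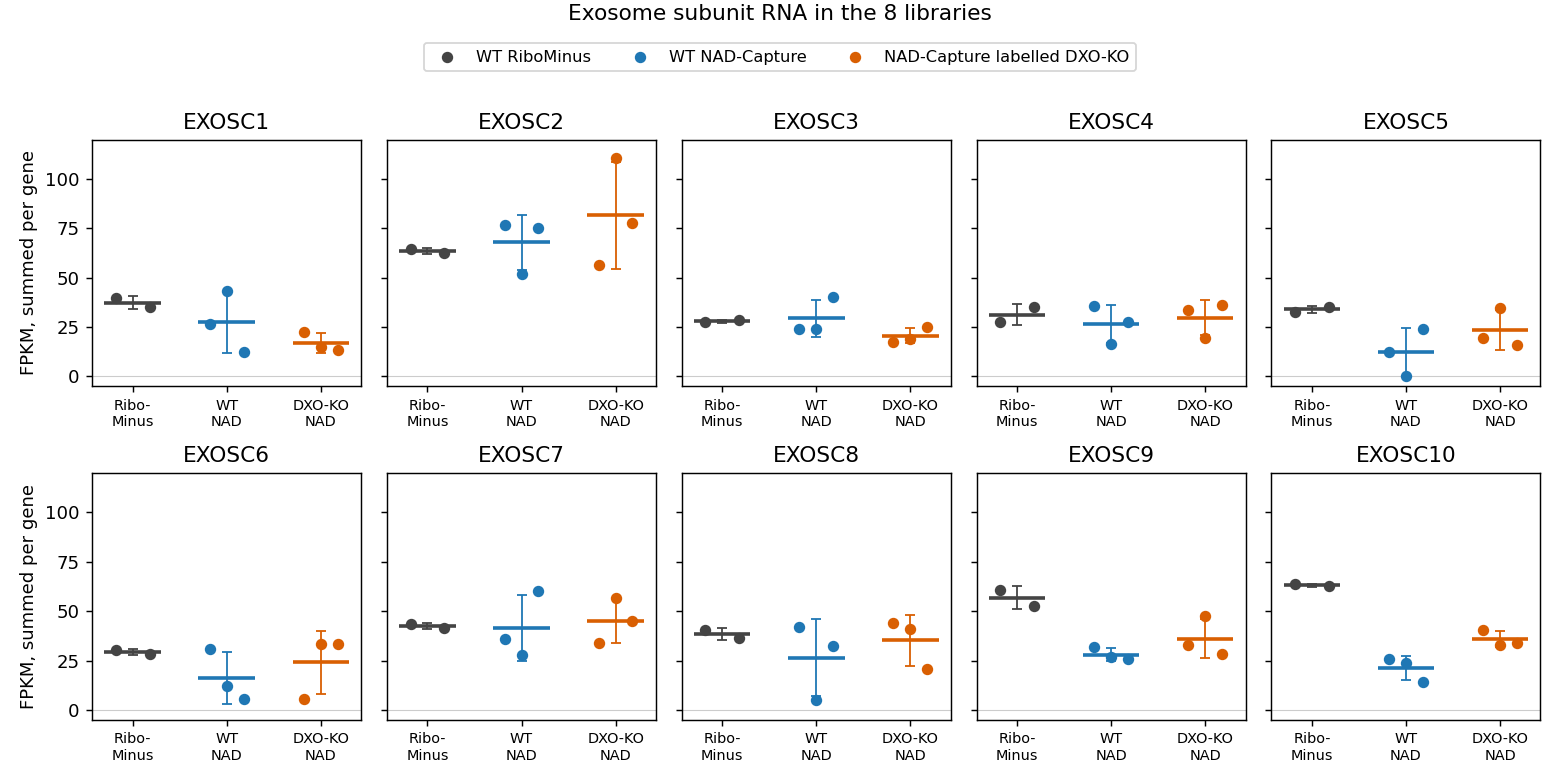
Summed FPKM of each subunit (vertical axis, 1 panel per gene) in the 8 libraries, with 1 point per library, a line at the mean of each group and an error bar of 1 SD. The 2 RiboMinus points of a gene lie close together, from 27.5 to 64.7 FPKM over all 10 genes, while NAD-Capture points of a gene spread widely, down to 0 for EXOSC5 in WT NAD-Capture replicate 2.

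Far fewer fragments stood behind the NAD-Capture values. A subunit rested on 203 to 1779 fragments in RiboMinus replicate 1 and 211 to 1425 in replicate 2. The median over the subunits was 7, 4.5 and 7.5 fragments in the WT NAD-Capture libraries. In replicates 1 to 3 labelled DXO-KO it was 23.5, 6 and 2.5 fragments. All 10 subunits together had 55 to 104 fragments in a WT NAD-Capture library. In the DXO-KO-labelled group they had 345 in replicate 1, 91 in replicate 2 and 44 in replicate 3. An interval on a number of fragments is a 95% Poisson interval and, like the limit of 3 fragments set for a value of 0, does not include PCR copying, so it holds for counting error alone. An interval on a log2 difference is the 95% interval of limma and rests on the spread between libraries.

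**Figure D2:**
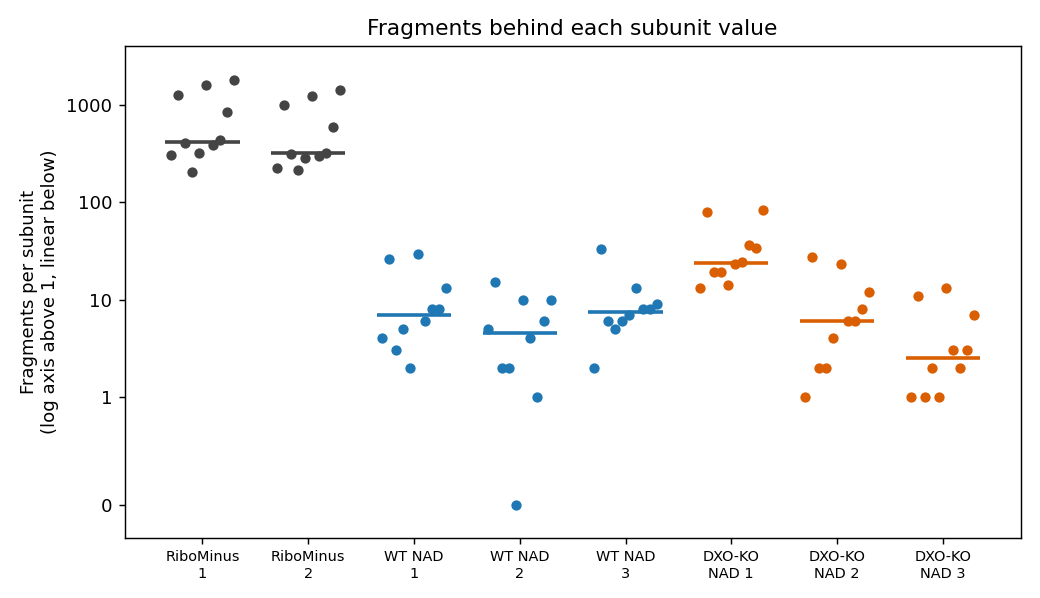
Number of fragments behind each of the 10 subunits (points; vertical axis, log above 1 and linear below) in each library, with a line at the median of the library, computed from FPKM, transcript length and the value of a single fragment. RiboMinus points lie above 200 fragments, and most NAD-Capture points lie below 30, with the highest in replicate 1 labelled DXO-KO.

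Among NAD-captured RNA of WT cells, all 3 cap subunits had levels that overlapped with RiboMinus. EXOSC2, an S1 and KH domain subunit of the cap, was at 64.7 and 62.5 FPKM in RiboMinus and at 76.9, 51.7 and 75.1 FPKM in WT NAD-Capture. It was at 56.3, 110.5 and 77.8 FPKM in the DXO-KO-labelled libraries, and the 3 groups overlapped. It was the highest subunit in every NAD-Capture library. EXOSC3, another S1 and KH domain subunit, was at 27.5 and 28.5 FPKM in RiboMinus, 24.2, 24.1 and 40.0 FPKM in WT NAD-Capture, and 17.6, 19.2 and 25.1 FPKM in the DXO-KO-labelled libraries. All 3 libraries labelled DXO-KO were below both RiboMinus libraries and overlapped with WT NAD-Capture. The WT NAD-Capture values of EXOSC3 rested on 2 to 6 fragments, listed almost wholly under NM_001002269, a transcript of 768 nt. There a fragment was worth 7.06 to 10.6 FPKM, against 2.50 to 3.76 FPKM on NM_016042, the main EXOSC3 transcript in RiboMinus. The overlap of EXOSC3 thus depends on the transcript under which its fragments were listed. EXOSC1, the third cap subunit, was at 39.6 and 35.1 FPKM in RiboMinus, 26.6, 43.2 and 12.3 FPKM in WT NAD-Capture, and 22.7, 14.7 and 13.2 FPKM in the DXO-KO-labelled libraries. WT NAD-Capture values of EXOSC1 lay on both sides of RiboMinus, and those labelled DXO-KO lay below it. The EXOSC1 values rested on 2 to 5 fragments in WT NAD-Capture and on 13, 1 and 1 for the DXO-KO label.

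Within the ring, EXOSC9, the partner of EXOSC4, separated from RiboMinus in both NAD-Capture groups. Its level was 60.98 and 52.8 FPKM in RiboMinus, 31.8, 26.7 and 25.6 FPKM in WT NAD-Capture, and 32.9, 47.4 and 28.1 FPKM in the DXO-KO-labelled libraries. No NAD-Capture value reached the lower RiboMinus value. EXOSC7 was at 43.6 and 41.3 FPKM in RiboMinus, 35.98, 27.8 and 60.1 FPKM in WT NAD-Capture, and 34.1, 56.6 and 44.9 FPKM in the DXO-KO-labelled libraries, so all 3 groups overlapped. EXOSC4 was at 27.6 and 35.1 FPKM in RiboMinus, 35.7, 16.5 and 27.4 FPKM in WT NAD-Capture, and 33.7, 19.7 and 36.1 FPKM in the DXO-KO-labelled libraries. These groups overlapped too, on 2 to 5 fragments in each NAD-Capture library but replicate 1 labelled DXO-KO, which had 19.

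The other 3 ring subunits each had 1 or more NAD-Capture libraries far below RiboMinus. EXOSC5 was at 32.6 and 35.4 FPKM in RiboMinus, 12.6, 0 and 24.3 FPKM in WT NAD-Capture, and 19.4, 34.9 and 15.8 FPKM in the DXO-KO-labelled libraries. The value of 0 in WT NAD-Capture replicate 2 allows a level of up to 19.7 FPKM, which is 3 fragments on this transcript. EXOSC8 was at 40.6 and 36.3 FPKM in RiboMinus, 42.1, 4.89 and 32.5 FPKM in WT NAD-Capture, and 44.2, 41.0 and 20.6 FPKM in the DXO-KO-labelled libraries. The low value was again that of WT NAD-Capture replicate 2 and rested on 1 fragment. EXOSC6, whose gene model is a single exon of 5153 nt, was at 30.3 and 28.2 FPKM in RiboMinus, 30.8, 11.95 and 5.30 FPKM in WT NAD-Capture, and 5.73, 33.4 and 33.2 FPKM in the DXO-KO-labelled libraries. Its low values were in WT NAD-Capture replicate 3, with 7 fragments, and in replicate 1 labelled DXO-KO, the deepest NAD-Capture library, with 23 fragments (interval 14.6 to 34.5).

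EXOSC10, the nuclear exonuclease, was the only subunit whose 3 groups were all apart from each other. It was at 63.7 and 62.6 FPKM in RiboMinus, 25.6, 23.6 and 14.2 FPKM in WT NAD-Capture, and 40.4, 33.0 and 33.9 FPKM in the DXO-KO-labelled libraries. RiboMinus was highest and WT NAD-Capture lowest. Its share of the subunit sum was 7.49%, 10.3% and 4.47% in WT NAD-Capture against 13.2%, 8.05% and 10.3% in the DXO-KO-labelled libraries, all below the RiboMinus shares. The WT NAD-Capture values rested on 13, 10 and 9 fragments, and those labelled DXO-KO on 83, 12 and 7.

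Summed over the 10 subunits, the level was 342.2, 230.4 and 316.8 FPKM in WT NAD-Capture and 307.1, 410.4 and 328.6 FPKM in the DXO-KO-labelled libraries, all below RiboMinus. Scaled so that the protein-coding transcripts of a library sum to 1000000, the subunits took 1246 and 1223 of it in RiboMinus, 688.6, 456.5 and 782.7 of it in WT NAD-Capture, and 980.0, 764.9 and 492.4 of it in the DXO-KO-labelled libraries. Both scales put every NAD-Capture library below both RiboMinus libraries. The cap's share was 37.3%, 51.6% and 40.2% in WT NAD-Capture against 31.5%, 35.2% and 35.3% in the DXO-KO-labelled libraries, above the RiboMinus share in every library. That share includes EXOSC3, whose FPKM depends on the transcript under which its fragments were listed. The ring's share was 54.4% to 56.8% in 5 of the 6 NAD-Capture libraries, near that of RiboMinus, and 38.1% in WT NAD-Capture replicate 2, the library where EXOSC5 was at 0.

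Tested over 17335 genes, EXOSC9 and EXOSC10 fell in WT NAD-Capture against WT RiboMinus. The log2 difference of log2(FPKM + 1), the scale of every test here, was -0.999 (SE 0.199) for EXOSC9 (limma, adjusted p = 0.0222) and -1.58 (SE 0.301) for EXOSC10 (limma, adjusted p = 0.0195). That was 2 of 10 subunits called, both lower, where 24.5% of all genes were called and 7.87% were called lower. EXOSC5, EXOSC9 and EXOSC10 had groups that did not overlap, all lower (3 of 10, against 55.3% of all genes in either direction and 26.7% lower). The 2 calls were a smaller share than that of all genes called, and 2 and 3 lower members of 10 are too few to set the subunits apart by direction. Of all genes called, 67.8% were higher with FPKM as deposited. The share was 40.7% after centring each library on its median gene and 47.2% after scaling to a common protein-coding total. EXOSC9 and EXOSC10 stayed lower and past the threshold under centring and under scaling. These settings moved every subunit difference down, so they could not test whether a call of a lower gene holds. The calls of both genes were lost without RiboMinus replicate 1 (limma, adjusted p = 0.245 for EXOSC9 and 0.196 for EXOSC10) and without RiboMinus replicate 2 (limma, adjusted p = 0.183 for EXOSC9 and 0.185 for EXOSC10). EXOSC9 also missed the threshold after quantile normalization (limma, adjusted p = 0.0694) and in a common fit of all 8 libraries (limma, adjusted p = 0.0521), where EXOSC10 passed.

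Of the 8 subunits not called in WT NAD-Capture against RiboMinus, 6 had a lower and 2 a higher mean. EXOSC5 had a log2 difference of -2.32 with a 95% interval from -5.86 to 1.22, which spans both signs. EXOSC6 was at -1.14 (interval -2.86 to 0.59) and EXOSC8 at -0.95 (interval -3.21 to 1.31). EXOSC2 was at 0.07 (interval -0.53 to 0.67), the narrowest interval of the 8, and EXOSC3 at 0.03 (interval -0.70 to 0.76). The signs of EXOSC2 and EXOSC3 turned to lower when each library was centred on its median gene or scaled to a common protein-coding total. The difference of EXOSC3 also depends on the transcript under which its fragments were listed. The median over the 10 subunits was -0.77, and over all genes tested it was 0.22. Centring on the median gene moved both by the same amount, to -1.28 and -0.28. Over genes with a mean FPKM of at least 10, which all 10 subunits reached, the median with FPKM as deposited was -0.33. Without WT NAD-Capture replicate 2 the subunit median was -0.48, and without replicate 3 it was -0.49.

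The comparison of the DXO-KO-labelled libraries with RiboMinus used the same 2 RiboMinus libraries, so its values stand beside those of WT NAD-Capture without being independent of them. No subunit passed the threshold in limma, where 3.29% of 15329 genes were called, and 2 of 10 had an unadjusted p under 0.05, where 21.1% of all genes did. These 2 were EXOSC1, at -1.14 (SE 0.315; limma, adjusted p = 0.121), and EXOSC10, at -0.81 (SE 0.221; limma, adjusted p = 0.117). Both passed without replicate 1 labelled DXO-KO, the deepest library of its group, at -1.36 for EXOSC1 (limma, adjusted p = 0.0408) and -0.90 for EXOSC10 (limma, adjusted p = 0.0474). In that fit 1322 of 14863 genes passed, against 505 of 15329 with that library. The DXO-KO-labelled values left in it rested on 1 and 1 fragments for EXOSC1 and on 12 and 7 for EXOSC10, so these calls stand on few fragments. EXOSC1, EXOSC3, EXOSC9 and EXOSC10 had groups that did not overlap, all lower (4 of 10, against 44.3% of all genes in either direction and 20.2% lower). EXOSC9 was at -0.67 (interval -1.41 to 0.07) and EXOSC2 at 0.30 (interval -0.52 to 1.13). The median over the subunits was -0.52, and over all genes it was 0.20. Over genes with a mean FPKM of at least 10, which all 10 subunits reached, it was -0.06. Of all genes called, 73.5% were higher with FPKM as deposited and 53.9% after centring, with no subunit called in either.

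**Figure D3:**
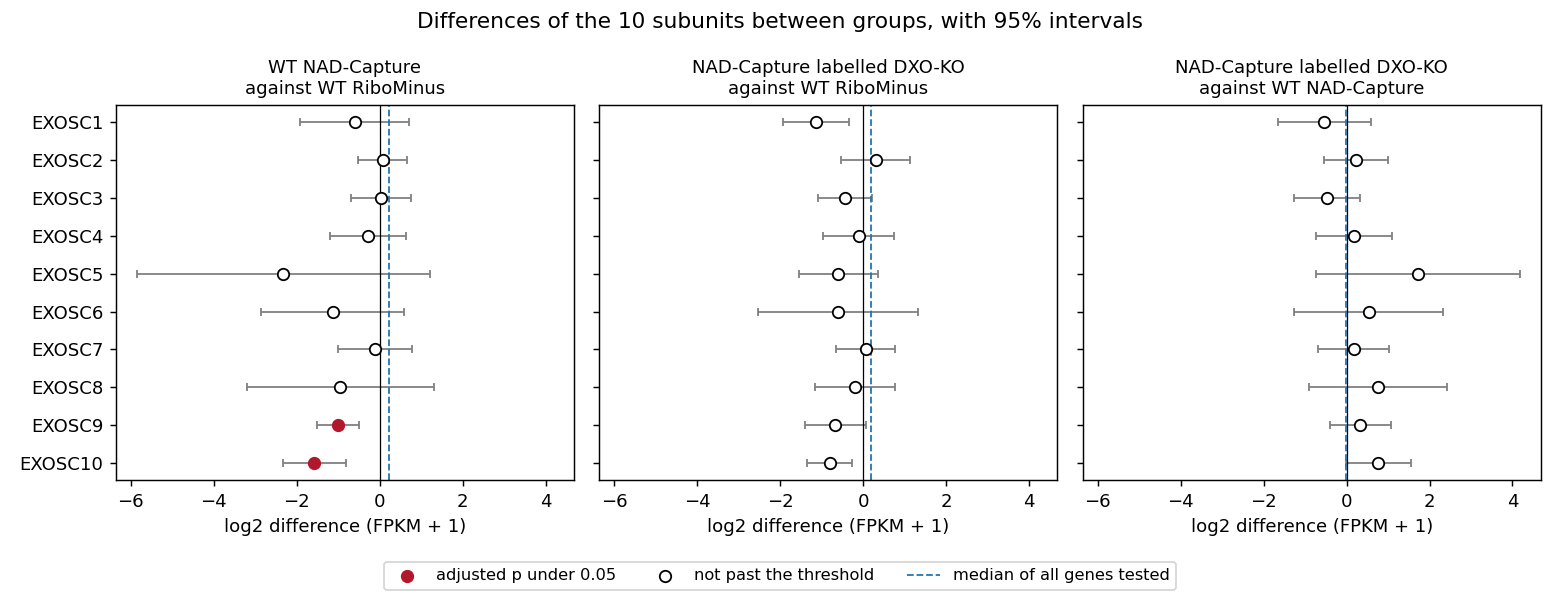
Difference in mean log2(FPKM + 1) of each subunit (points) with its 95% interval (lines) in the 3 comparisons, with filled points for an adjusted p under 0.05 and a dashed line at the median of all genes tested. EXOSC9 and EXOSC10 are the only filled points, both in WT NAD-Capture against WT RiboMinus, and the intervals of EXOSC5 are the widest in the left and right panels.

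Between the DXO-KO-labelled libraries and WT NAD-Capture, which were made with the same kit, no subunit passed the threshold. In limma 0 of 10 had an unadjusted p under 0.05, where 16.5% of 18084 genes did, and 0.0774% of all genes were called after adjustment. EXOSC10 came nearest, at 0.77 higher in the DXO-KO-labelled libraries (interval -0.01 to 1.55; limma, adjusted p = 0.308), and its 3 values there were above all 3 of WT NAD-Capture. It was 1 of 10 subunits whose groups did not overlap, against 23.1% of all genes in either direction and 11.6% higher. EXOSC5 had the largest difference, 1.72, with an interval from -0.73 to 4.17, and without WT NAD-Capture replicate 2, where it was at 0, the difference was 0.32. EXOSC8 was at 0.75 (interval -0.90 to 2.41), and without WT NAD-Capture replicate 2 its sign turned, to -0.14. EXOSC1 and EXOSC3 had lower means, at -0.54 (interval -1.66 to 0.58) and -0.47 (interval -1.26 to 0.33), and the other 8 had higher means.

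The intervals of the other subunits show how large a difference could have been missed. That of EXOSC9 ran from -0.41 to 1.06, that of EXOSC2 from -0.54 to 1.00 and that of EXOSC7 from -0.68 to 1.02. All 3 intervals include a log2 difference of 1. The signs of EXOSC2, EXOSC4 and EXOSC7 turned to lower after quantile normalization. The median over the 10 subunits was 0.28, against -0.02 over all genes. Over genes with a mean FPKM of at least 10, which all 10 subunits reached, the median was 0.27, so the subunits did not stand apart from them. Quantile normalization brought the subunit median to 0.03, and leaving out WT NAD-Capture replicate 2 turned it to -0.01.

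The set held 5 subunits listed as more than 1 RefSeq transcript, and exons that tell apart the rows of EXOSC2, EXOSC3 and EXOSC10 are shown so that the rows can be read as RNA; they come from the GENCODE release 29 transcripts paired with the RefSeq identifiers, on GRCh38, and lie inside the coding sequence. All are printed in the sense of the gene.
EXOSC10 exon 19, in NM_001001998 and absent from NM_002685 (chr1:11073934-11074008, minus strand, 75 nt): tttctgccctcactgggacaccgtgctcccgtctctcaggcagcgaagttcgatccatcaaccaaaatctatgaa
EXOSC2 exon 4, in NM_014285 and absent from NM_001282709 (chr9:130698162-130698251, plus strand, 90 nt): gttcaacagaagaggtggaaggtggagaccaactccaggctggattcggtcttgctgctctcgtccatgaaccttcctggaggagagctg
EXOSC2 exon 6, in NM_014285 and absent from the model paired with NM_001282708 (chr9:130700867-130700935, plus strand, 69 nt): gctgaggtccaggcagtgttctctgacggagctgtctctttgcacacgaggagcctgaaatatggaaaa
EXOSC3 exon 3, in NM_016042 and absent from NM_001002269 (chr9:37781986-37782137, minus strand, 152 nt): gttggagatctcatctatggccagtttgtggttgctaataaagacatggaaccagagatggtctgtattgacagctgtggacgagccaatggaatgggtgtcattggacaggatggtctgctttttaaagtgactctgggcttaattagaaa
The exons of EXOSC10 and EXOSC2 keep the reading frame when they are left out, since their lengths are multiples of 3, and exon 3 of EXOSC3 does not. How fragments of shared exons were divided among the transcripts of a gene is not described in the sources used here. In the shallow libraries the division was close to all or none for EXOSC3, EXOSC9 and EXOSC10. EXOSC2 was divided in every NAD-Capture library, with 55.1% to 88.3% of the gene under its largest row. EXOSC7 was divided in replicate 2 labelled DXO-KO, into 88.1% and 11.9%.

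EXOSC2 had overlapping levels in the 3 groups as a gene, while its listed transcripts differed. NM_014285, which holds both exons, was at 48.0 and 40.1 FPKM in RiboMinus, 74.2% and 64.2% of the gene, and at 0 or at most 0.00115 FPKM in every NAD-Capture library. A single fragment on this transcript would be worth far more than that, and 3 fragments would be 2.02 to 20.2 FPKM. The RiboMinus mean was 4.47-fold the highest of these 3-fragment values in WT NAD-Capture and 2.18-fold the highest in the DXO-KO-labelled libraries. These folds are not lower bounds on a fall of NM_014285, since fragments of shared exons may have been listed under other EXOSC2 rows. A fitted difference for such a row depends on the pseudocount of 1, so no size is given. Tested as a single transcript it fell in WT NAD-Capture (limma, adjusted p = 0.00216, where 25.7% of transcripts were called, 12.6% higher and 13.1% lower) and in the DXO-KO-labelled libraries (limma, adjusted p = 0.00963, where 14% were called, 4.41% higher and 9.63% lower). NM_001282708, whose paired model lacks exon 6, was at 1.26 and 2.34 FPKM in RiboMinus. Its level was 0.0486, 0.0479 and 60.9 FPKM in WT NAD-Capture and 49.7, 84.9 and 34.9 FPKM in the DXO-KO-labelled libraries. Its log2 difference from RiboMinus was 4.29 in the DXO-KO-labelled libraries (limma, adjusted p = 0.0133). WT NAD-Capture replicate 3 was thus near the DXO-KO-labelled libraries in this row, and replicates 1 and 2 were not.

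NM_001282709, which lacks exon 4, was at 6.67 and 10.5 FPKM in RiboMinus, 23.2, 20.5 and 0 FPKM in WT NAD-Capture, and at most 0.00189 FPKM in the DXO-KO-labelled libraries. It passed as lower there than in RiboMinus (limma, adjusted p = 0.0131). NR_104230, a noncoding RNA of the gene, is paired with the same model as NM_001282708, so exons do not tell these rows apart here and the length behind its fragments is uncertain. It was at 8.77 and 9.53 FPKM in RiboMinus, 53.7, 31.1 and 14.2 FPKM in WT NAD-Capture, and 6.60, 25.6 and 42.9 FPKM in the DXO-KO-labelled libraries. No EXOSC2 row passed between the NAD-Capture groups (limma, adjusted p from 0.530 to 0.770, where 0.032% of transcripts were called). For NM_001282709, 3 fragments would be 2.21, 12.9 and 22.1 FPKM in replicates 1, 2 and 3 labelled DXO-KO. Replicate 1 alone was thus deep enough to show a level below that of RiboMinus, and only for fragments as listed.

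**Figure D4:**
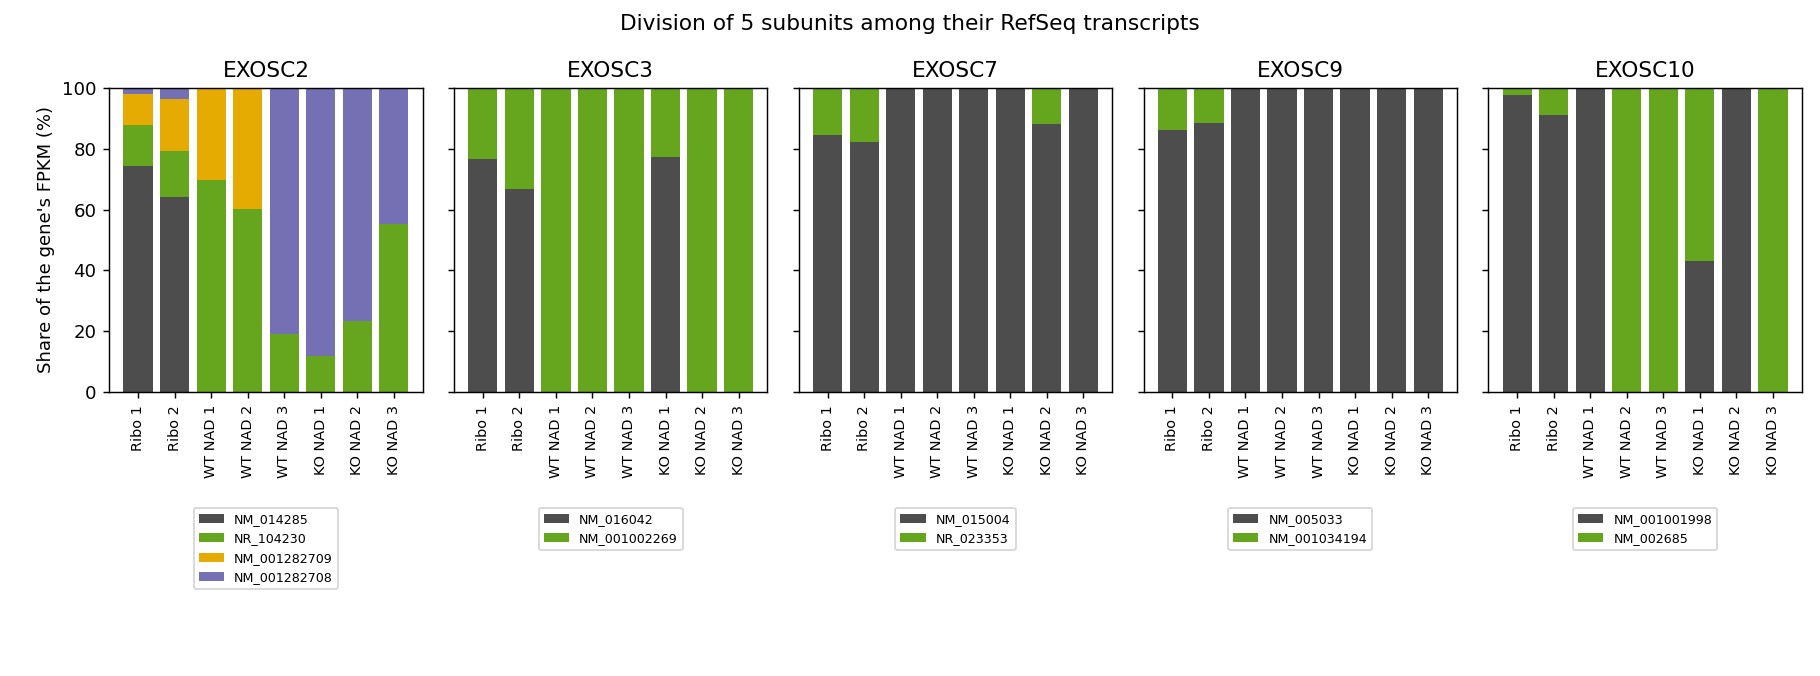
Share of each gene's FPKM (vertical axis, %) listed under each RefSeq transcript, in stacked bars for the 8 libraries, for the 5 subunits with more than 1 transcript. The 2 RiboMinus bars of each gene are alike, most NAD-Capture bars of EXOSC3, EXOSC9 and EXOSC10 hold a single transcript, and replicate 1 labelled DXO-KO is the NAD-Capture library with a mixed bar for EXOSC3 and EXOSC10.

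EXOSC3 and EXOSC10 were divided between 2 transcripts in RiboMinus and in the deepest NAD-Capture library, and listed under a single one elsewhere. NM_016042, the EXOSC3 transcript with exon 3, was at 21.1 and 19.0 FPKM in RiboMinus and at 13.6 FPKM in replicate 1 labelled DXO-KO. It was at 0 or at most 0.000259 FPKM in the other 5 NAD-Capture libraries, where nearly all EXOSC3 fragments, 1 to 6 a library, were listed under NM_001002269. On NM_016042 3 fragments would be 7.49 to 11.3 FPKM in WT NAD-Capture, below its RiboMinus level. As listed, NM_016042 fell in WT NAD-Capture against RiboMinus (limma, adjusted p = 0.00218) and NM_001002269 rose (1.75; limma, adjusted p = 0.0300). The RiboMinus mean of NM_016042 was 1.78-fold the highest 3-fragment value. That fold is not a lower bound either, since fragments of shared exons may have been listed under NM_001002269. In the deepest NAD-Capture library, with 19 fragments, NM_016042 made up 77.2% of the gene, and in RiboMinus it made up 76.8% and 66.8%. EXOSC10 with exon 19 (NM_001001998) made up 97.6% and 91.0% of the gene in RiboMinus. In WT NAD-Capture replicate 1 and in replicate 2 labelled DXO-KO nearly the whole gene was listed under it, and in WT NAD-Capture replicates 2 and 3 and replicate 3 labelled DXO-KO nearly the whole gene was listed under NM_002685. In replicate 1 labelled DXO-KO, with 83 fragments, 57.0% was listed under NM_002685, a level of 23.0 FPKM against 1.54 and 5.66 FPKM in RiboMinus. Neither EXOSC10 transcript passed the threshold in any comparison (limma, adjusted p from 0.182 to 0.945).

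EXOSC9 and EXOSC7 each had a minor transcript that was listed in RiboMinus and hardly in NAD-Capture. NM_001034194, the minor EXOSC9 transcript, was at 8.41 and 6.14 FPKM in RiboMinus and at most 0.00219 FPKM in the NAD-Capture libraries. It passed as lower in WT NAD-Capture (limma, adjusted p = 0.00429) and in the DXO-KO-labelled libraries (limma, adjusted p = 0.0127). On this transcript 3 fragments would be 9.05 to 13.6 FPKM in WT NAD-Capture, above its RiboMinus level, so a fall was not detectable there at this depth. In replicate 1 labelled DXO-KO 3 fragments would be 2.80 FPKM, below the RiboMinus values. The major EXOSC9 transcript, NM_005033, was also lower in WT NAD-Capture (-0.81; limma, adjusted p = 0.0457). NR_023353, a noncoding RNA of EXOSC7, was at 6.76 and 7.38 FPKM in RiboMinus, 0 in 5 NAD-Capture libraries and 6.73 FPKM in replicate 2 labelled DXO-KO. It passed as lower in WT NAD-Capture (limma, adjusted p = 0.00351), but there 3 fragments would be 19.1 to 28.7 FPKM, so this fall was not detectable at this depth either.

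Genes whose proteins work with the exosome or beside it were counted in 4 lists of 21 genes, all of them tested. In WT NAD-Capture against RiboMinus 2 of the 21 passed, both lower, where 24.5% of all genes passed and 7.87% passed as lower. Groups did not overlap for 10 of the 21, all lower, against 26.7% of all genes that were lower in this way. Of the 21, 16 had a lower and 5 a higher mean. Their median was -0.25, against 0.22 over all genes and -0.33 over genes with a mean FPKM of at least 10, which not all of the 21 reached. DIS3L, a cytoplasmic exosome nuclease, was at 16.8 and 17.5 FPKM in RiboMinus and at 4.51, 3.50 and 9.12 FPKM in WT NAD-Capture (log2 difference -1.53, SE 0.410; limma, adjusted p = 0.04999, just under the threshold). That call was lost in 10 of 14 alternatives, with an adjusted p of up to 0.329 in limma, among them leaving out either RiboMinus replicate or WT NAD-Capture replicate 1 or 2. PARN, a deadenylase outside the exosome, was at 24.7 and 24.3 FPKM in RiboMinus and at 9.50, 4.34 and 4.42 FPKM in WT NAD-Capture (log2 difference -1.92, SE 0.380; limma, adjusted p = 0.0218). It was lost without either RiboMinus replicate (limma, adjusted p = 0.219 and 0.213) and, at 0.0503, without WT NAD-Capture replicate 3, and it missed the threshold after quantile normalization (limma, adjusted p = 0.0501) and in the common fit (limma, adjusted p = 0.0703). DIS3, the main nuclease of the complex, was at 29.7 and 30.3 FPKM in RiboMinus and 27.2, 27.9 and 31.0 FPKM in WT NAD-Capture, with overlapping groups. MTREX, the helicase that feeds RNA to the nuclear exosome, was at 41.5 and 41.1 FPKM against 38.0, 38.2 and 28.5 FPKM (limma, adjusted p = 0.434), with groups that did not overlap.

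In the DXO-KO-labelled libraries against WT NAD-Capture, none of the 21 passed in limma, where 0.0774% of all genes passed. Of the 21, 16 had a higher and 5 a lower mean, and the median was 0.67 against -0.02 over all genes. Over genes with a mean FPKM of at least 10, which not all of the 21 reached, the median was 0.27. All 7 genes of the adaptor list, which bring nuclear RNA to the exosome, had higher means, with a median of 0.91. Among the 3 of them most abundant in RiboMinus, PABPN1 was at 1.54, ZCCHC7 at 1.00 and TENT4A at 0.99 (limma, adjusted p = 0.228, 0.310 and 0.683). In the SKI list, whose complex feeds RNA to the cytoplasmic exosome, 2 genes had higher and 2 lower means. Against RiboMinus, none of the 21 passed in the DXO-KO-labelled libraries, where 3.29% of all genes passed, and 10 had a higher and 11 a lower mean.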

How the data were processed

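RNA was sequenced in 2 WT RiboMinus, 3 WT NAD-Capture and 3 NAD-Capture libraries labelled DXO-KO. The authors deposited FPKM per RefSeq transcript and library. TopHat2 2.1.1, Bowtie2 2.2.8.0, Cuffdiff and build hg19 are named per the submitters' processing notes; the annotation version and any scaling between libraries are not given in the sources used here. A RefSeq table (GRCh38.p14) gave 52028 of 53216 transcripts (97.8%) a symbol, and FPKM were summed per symbol. Coordinates printed are of GRCh38, not of the deposited values' build.

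The test of differences was limma (version 3.58.1, under R 4.3.3), two-sided, with lmFit and a trended eBayes on log2(FPKM + 1), a scale that understates the change of low genes. It covered genes whose mean FPKM over the groups compared was 1 or more, with Benjamini-Hochberg adjustment and a threshold of 0.05. Only the groups compared entered a fit. Depth came from low values of genes with a single transcript of 1500 to 6000 nt: FPKM times length minus 200 nt lay within 4% of a whole multiple of the value of 1 fragment for 70.3% to 72.8% of low values. FPKM of genes with several transcripts were not whole multiples, nor were some of subunits with a single transcript, so no count model was fitted. EXOSC1, for example, came to 3.70, 5.17 and 2.22 fragments in WT NAD-Capture. Fragment numbers given for a subunit are such estimates, rounded. Of the subunits with a single transcript, only EXOSC6 lay in the range of 1500 to 6000 nt. Medians over the subunits are descriptions without a test. The genes named are the 10 subunits, DXO, genes of 4 lists (cofactors, adaptors, SKI complex, other exonucleases) that passed the threshold and examples among the 3 of each list highest in RiboMinus, plus markers. Members and lists were chosen with earlier results of these data known. The fit was tested on simulated data before use. Alternatives were a pseudocount of 0.1, no filter, a mean FPKM of at least 10, centring, quantile normalization, scaling to a common protein-coding total, a common fit of all 8 libraries, a block for the replicate number, single transcripts and leaving out each replicate.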

Additional observations from a re-analysis of the deposited data

How the results depend on the processing

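No subunit passed between the NAD-Capture groups in any of 15 alternatives, and DXO kept its direction in all of them (1.38 to 1.90 without a replicate). The median subunit difference there was 0.0339 after quantile normalization and -0.0112 to 0.42 without a replicate. In WT NAD-Capture against RiboMinus, 2 subunits passed, and 1 passed after quantile normalization, 1 in the common fit of all libraries and 0 to 2 without a replicate. As single transcripts a gene stood as its most abundant transcript over the libraries compared, so other transcripts that passed were not counted. In that setting 2 passed, EXOSC9 as lower and EXOSC3 as higher, and EXOSC10 missed the threshold (limma, adjusted p = 0.182). The median of -0.77 became -1.28 after centring, -0.53 after quantile normalization, -1.19 after scaling to a protein-coding total and -0.87 to -0.48 without a replicate. In the DXO-KO-labelled libraries against RiboMinus, 0 to 2 passed without a DXO-KO-labelled replicate. With the most abundant transcript of each gene 1 passed, EXOSC2 as higher. The median of -0.52 became -0.77 after centring, -0.99 after protein-coding scaling, -0.34 as single transcripts and -0.57 to -0.36 without a replicate. Of the 10 places in the RiboMinus order, 3 to 8 held in a single library and 4 for the most abundant transcripts.

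Signs turned only in differences that passed no test as genes. Between the NAD-Capture groups, EXOSC2, EXOSC4 and EXOSC7 were at -0.10, -0.0230 and -0.12 after quantile normalization. Without a replicate EXOSC2 was at -0.0139 to 0.47, EXOSC4 at -0.11 to 0.45, EXOSC6 at -0.0271 to 1.32, EXOSC7 at -0.0696 to 0.47 and EXOSC8 at -0.14 to 1.29. In WT NAD-Capture against RiboMinus, EXOSC2 and EXOSC3 were at -0.43 and -0.48 after centring and at -0.36 and -0.40 after protein-coding scaling. EXOSC7 was at 0.19 after quantile normalization and 0.15 as a single transcript. Without a replicate EXOSC2 was at -0.0287 to 0.25, EXOSC3 at -0.21 to 0.15, EXOSC4 at -0.53 to 0.00598 and EXOSC7 at -0.41 to 0.13. In the DXO-KO-labelled libraries against RiboMinus, EXOSC2 was at -0.18 and EXOSC7 at -0.42 after protein-coding scaling, and EXOSC7 at -0.20 after centring. As a single transcript EXOSC3 was at 0.65, the value of NM_001002269, while its other transcript, NM_016042, was at -3.11. Without a replicate EXOSC4 was at -0.27 to 0.16, EXOSC6 at -0.99 to 0.18, EXOSC7 at -0.11 to 0.24 and EXOSC8 at -0.39 to 0.14. The cause of these turns was not tested.

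Samples with the same replicate number did not deviate together (correlations from -0.04 to 0.02 over genes, none above 0.1), so the numbers were not taken as pairs. With the replicate block, WT NAD-Capture against RiboMinus had 0 subunits past the threshold (EXOSC9 and EXOSC10 each at a limma adjusted p of 0.0984) and a median of -0.49, with EXOSC2 at -0.0120 and EXOSC3 at -0.21, and the block dropped WT NAD-Capture replicate 3, which has no RiboMinus partner. The block also ended the calls of PARN (-1.77; limma, adjusted p = 0.129) and DIS3L (-1.87; limma, adjusted p = 0.0984). In the DXO-KO-labelled libraries against RiboMinus the block gave EXOSC8 at 0.14, and it changed no other subunit call.

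Over all genes, 4245 passed in WT NAD-Capture against RiboMinus, 0 with the replicate block, 7 and 14 without a RiboMinus replicate, 2499 after quantile normalization, 2707 in the common fit and 2383 with a filter at a mean FPKM of 10. In the DXO-KO-labelled libraries against RiboMinus 505 passed, from 0 with the replicate block or without a RiboMinus replicate, and 68 with no filter, to 1506 without replicate 3 labelled DXO-KO. Between the NAD-Capture groups 14 passed, from 3 with no filter to 443 in the common fit. Depth limits every NAD-Capture value: a fragment on a transcript of 1 kb effective length is worth 1.24 to 12.4 FPKM there and 0.0933 and 0.114 FPKM in RiboMinus. Where leaving out a RiboMinus replicate left a single sample, it was assumed to vary like the other group.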
